A study of Mus musculus with 3 samples.

Results

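The comparison set 2 knockout libraries, 1 from a DAXX-/- clone and 1 from an ATRX-/- clone of mouse embryonic stem cells (ESCs), against the single library of a wildtype clone. These 2 were chosen by genotype label out of the 3 libraries in all, and the question was what both clones shared against wildtype. The cells are described as male and isogenic, on a C57BL/6x129sV background. Knockouts had been made by CRISPR targeting, and polyadenylated RNA was sequenced. All 3 cultures grew in medium with serum and leukaemia inhibitory factor (LIF), and had been moved from irradiated feeder cells to gelatin. Each genotype was 1 clone and 1 library, so clone and genotype cannot be told apart. Both knockouts were set against the same wildtype library, so a difference they shared cannot be told apart from a feature of that wildtype clone.

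ATRX is a chromatin remodeller of the SWI/SNF family and DAXX is a histone chaperone. Together they deposit H3.3, a replacement histone, at telomeres, heterochromatin, imprinted regions and endogenous retroviruses. Both proteins are known in ESCs for the silencing of retroviral elements such as the intracisternal A particles (IAPs).

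Of 13336 genes tested, 6 passed an adjusted p of 0.05 in edgeR's quasi-likelihood test with Benjamini-Hochberg adjustment (0.045%), 2 of them higher in the knockouts (0.015%) and 4 lower (0.03%). The promoters of the called genes for which a sequence was at hand are shown first, because they differ in CG content, the DNA sequence that carries methylation. They are 300-base windows from RefSeq on build GRCm38.p6, written 5′ to 3′ on the gene's strand, with each CG in capitals. The Epha4 window, chr1:77515039-77515338 on the minus strand, held 17 CG. The Ddx3y window, chrY:1286564-1286863 on the minus strand, also held 17. The Mageb16 window, chrX:79671386-79671685 on the minus strand, held 6, and the Rian window, chr12:109603695-109603994 on the plus strand, held 0.
Epha4: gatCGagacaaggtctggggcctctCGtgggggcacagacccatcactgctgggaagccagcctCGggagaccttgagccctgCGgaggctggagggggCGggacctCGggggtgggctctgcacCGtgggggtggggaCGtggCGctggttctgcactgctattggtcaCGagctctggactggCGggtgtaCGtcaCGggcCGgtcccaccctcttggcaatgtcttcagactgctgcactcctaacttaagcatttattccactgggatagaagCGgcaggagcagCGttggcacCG
Ddx3y: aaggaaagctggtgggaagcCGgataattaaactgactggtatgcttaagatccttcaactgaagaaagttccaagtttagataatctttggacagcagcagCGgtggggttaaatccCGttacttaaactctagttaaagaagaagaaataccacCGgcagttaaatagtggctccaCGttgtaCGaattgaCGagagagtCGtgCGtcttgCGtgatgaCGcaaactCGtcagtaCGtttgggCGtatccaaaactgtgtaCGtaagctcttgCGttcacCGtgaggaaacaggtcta
Mageb16: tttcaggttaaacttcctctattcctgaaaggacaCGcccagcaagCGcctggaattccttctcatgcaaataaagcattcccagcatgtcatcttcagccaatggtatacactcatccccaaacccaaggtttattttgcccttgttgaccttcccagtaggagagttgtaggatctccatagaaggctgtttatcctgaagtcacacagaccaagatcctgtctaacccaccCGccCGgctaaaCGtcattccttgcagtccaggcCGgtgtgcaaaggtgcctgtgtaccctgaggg
Rian: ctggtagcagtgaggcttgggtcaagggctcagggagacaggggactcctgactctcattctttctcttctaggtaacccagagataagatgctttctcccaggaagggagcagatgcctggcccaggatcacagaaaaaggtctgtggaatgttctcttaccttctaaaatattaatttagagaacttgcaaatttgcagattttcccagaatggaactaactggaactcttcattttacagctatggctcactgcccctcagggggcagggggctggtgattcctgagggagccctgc
Among all 32851 RefSeq promoter windows of this length, 94.6% held at least 1 CG, searched as the letters CG on the strand shown, and the median was 7. The genes tested that had a window (10563 of 13336, or 79.2%) held a median of 21. The count of CG is a description of the letters. Methylation was not measured here.

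The targeted genes were read first, since they bear on the labels. Reads on Atrx numbered 4582 in wildtype, 3576 in DAXX-/- cells and 1800 in ATRX-/- cells, or 316, 327 and 130 CPM (reads scaled by effective library size to a common total). The summed Atrx level was below wildtype in ATRX-/- cells alone, with a log2 fold against wildtype of -1.28 (95% counting interval -1.36 to -1.20). Of its transcripts, 9 of 12 were below wildtype in both knockouts, as were 3 of 4 for Daxx. Daxx had 1125, 623 and 972 reads, or 77.5, 57.0 and 70.2 CPM, with log2 folds of -0.44 (-0.59 to -0.30) for DAXX-/- and -0.14 (-0.27 to -0.02) for ATRX-/-. Neither gene was called in the joint comparison, with edgeR adjusted p of 0.921 for Atrx and 0.852 for Daxx. A frameshift can leave RNA in place, and no source used here gives the position of the edits, so these levels are a limited check of the labels.

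The libraries were close in depth, with 13981915 reads on genes in wildtype, 11224100 in DAXX-/- cells and 13988376 in ATRX-/- cells. Between 77.0% and 78.9% of reads were aligned. All 28 markers of naive and core pluripotency reached 1 CPM in at least 1 library, and Dppa3 was under it in ATRX-/- cells (123, 60 and 10 reads). Their summed level was 8775 CPM in wildtype, 9864 in DAXX-/- cells and 9200 in ATRX-/- cells. No member was called by edgeR or passed 2-fold in both knockouts, and 3 of 28 had an unadjusted p under 0.05.

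Most genes were close to wildtype in both knockouts. The fold was inside 1.5-fold in both for 10018 of 13336 genes (75.1%) and inside 2-fold in both for 11792 (88.4%). The edgeR test had 1 residual degree of freedom, the spread between the DAXX and the ATRX clone, and it assumes that the lone wildtype library varies as they do. That spread holds the difference in genotype as well as in clone. The test also drew on the spread of the other genes, with a median weight of 4.57 degrees of freedom. Beside the edgeR test stands a rule of size with no test. A gene was called where the whole 95% counting interval of its fold lay beyond 2-fold in the same direction in both knockouts. This rule took 31 genes as higher (0.232%) and 78 as lower (0.585%), or 109 in all (0.817%). All 109 had an unadjusted p under 0.05 in edgeR, as had 899 genes overall (6.74%). Both rules use the same 3 libraries, and a large shared fold makes a small p likely. The overlap is thus no separate support for the rule of size. Below, "rose" and "fell" are kept for the 6 genes of the edgeR test. Those calls sit close to the threshold: with counts thinned to the smallest library 0 genes passed (adjusted p of 0.0518 for 5 of the 6 and 0.103 for Rian), and when each gene was represented by its most abundant transcript 2 passed, Kbtbd11 and Ddx3y.

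**Figure D1:**
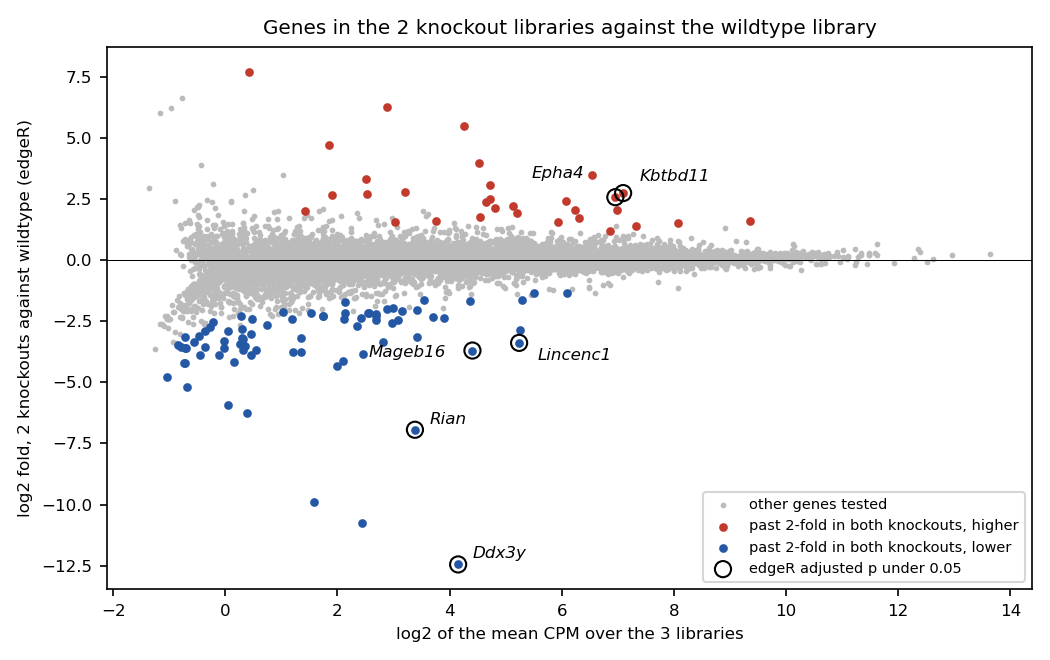
Log2 fold of both knockouts against wildtype (vertical axis) by the log2 of the mean CPM over the 3 libraries (horizontal axis) for the 13336 genes tested. Coloured points are the 31 genes higher and the 78 lower in both knockouts by the rule of size, and the 6 circled and labelled genes passed edgeR's adjusted p of 0.05.

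The genes that rose were Kbtbd11 and Epha4. Kbtbd11 encodes a protein with Kelch and BTB domains and lies on chromosome 8 (15011025 to 15033333, GRCm38). It had 415 reads in wildtype, 2184 in DAXX-/- cells and 2516 in ATRX-/- cells, or 28.6, 199.98 and 181.7 CPM. Both knockouts were far above wildtype and close to each other. The log2 fold of the knockouts was 2.74 (edgeR adjusted p = 0.0322), with 2.81 (2.65 to 2.96) in DAXX-/- cells and 2.67 (2.52 to 2.82) in ATRX-/- cells. Both of its annotated transcripts were higher in both knockouts.

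Epha4, a receptor tyrosine kinase for ephrins known for axon guidance, lies on chromosome 1 (77367185 to 77515088). It had 420 reads in wildtype, 1786 in DAXX-/- cells and 2495 in ATRX-/- cells, or 28.9, 163.5 and 180.2 CPM. The log2 fold was 2.57 (edgeR adjusted p = 0.0322), and all 3 of its transcripts were higher in both knockouts. Among the 17 Eph receptors and ephrins tested, Epha4 alone was called by either rule, and the list's median log2 fold was 0.10, against 0.03 over all genes. Its ligand gene Efnb2 had 91, 36 and 46 reads and a log2 fold of -0.92 (edgeR adjusted p = 0.715).

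Among the 29 other genes higher by the rule of size, several encode receptors and surface proteins. Grin2c encodes an NMDA-type glutamate receptor subunit. Its reads were 9 (wildtype), 359 (DAXX-/-) and 328 (ATRX-/-), with a log2 fold of 5.48 (edgeR adjusted p = 0.0668). Of 8 ionotropic glutamate receptor genes tested it alone was called by the rule of size. Grin2a (3, 10 and 14 reads) had log2 folds of 2.15 and 2.29 in the separate knockouts, with intervals that reach inside 2-fold. Tlr2, a Toll-like receptor for bacterial lipoproteins, had 65, 377 and 558 reads and a log2 fold of 3.06 (edgeR adjusted p = 0.0668). Tlr3, the receptor for double-stranded RNA, was on the other side, with 28, 3 and 5 reads and a log2 fold of -2.54 (edgeR adjusted p = 0.567). Irak3, an inhibitor of Toll-like receptor signalling, had 187, 606 and 589 reads and a log2 fold of 1.92 (edgeR adjusted p = 0.177). Cd200, a surface glycoprotein that restrains myeloid cells, had 2, 62 and 227 reads, so its size against wildtype rests on very few reads there. It was higher in both knockouts and differed between them, with a log2 fold of 5.36 (3.45 to 8.44) in DAXX-/- cells and 6.89 (5.03 to 9.95) in ATRX-/- cells.

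Enzymes, transporters and regulators were also among them. Ube2l6, which attaches the ubiquitin-like modifier ISG15 to proteins, had 31 reads in wildtype, 485 in DAXX-/- cells and 313 in ATRX-/- cells, and a log2 fold of 3.95 (edgeR adjusted p = 0.243). Gdpd3, a glycerophosphodiester phosphodiesterase family member, had 0, 24 and 25 reads, which against a floor of 3 reads in the wildtype library is at least 10.6-fold higher in DAXX-/- cells and at least 8.74-fold higher in ATRX-/- cells. Abca1, which exports cholesterol from cells, had 247, 1286 and 921 reads and a log2 fold of 2.43 (edgeR adjusted p = 0.262). The kinase gene Dclk2 had 599, 1978 and 2180 reads and a log2 fold of 2.04 (edgeR adjusted p = 0.0609). Of the transcription factors, Bcl11a, a repressor of fetal globin genes, had 27, 157 and 160 reads, and Pou4f2, known from retinal ganglion cells, had 92, 457 and 430. The secreted Wnt modulator Sfrp2 had 124, 383 and 562 reads and a log2 fold of 2.15 (edgeR adjusted p = 0.127). Fmn2, a formin that nucleates actin filaments, had 148, 468 and 714 reads and a log2 fold of 2.21 (edgeR adjusted p = 0.111). Nuggc and Sned1 completed the highest-ranked genes, with log2 folds of 2.65 and 2.39. Sned1 overlaps Mterf4 on the opposite strand (462, 426 and 406 reads), and no source used here states whether the counting used strand.

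**Figure D2:**
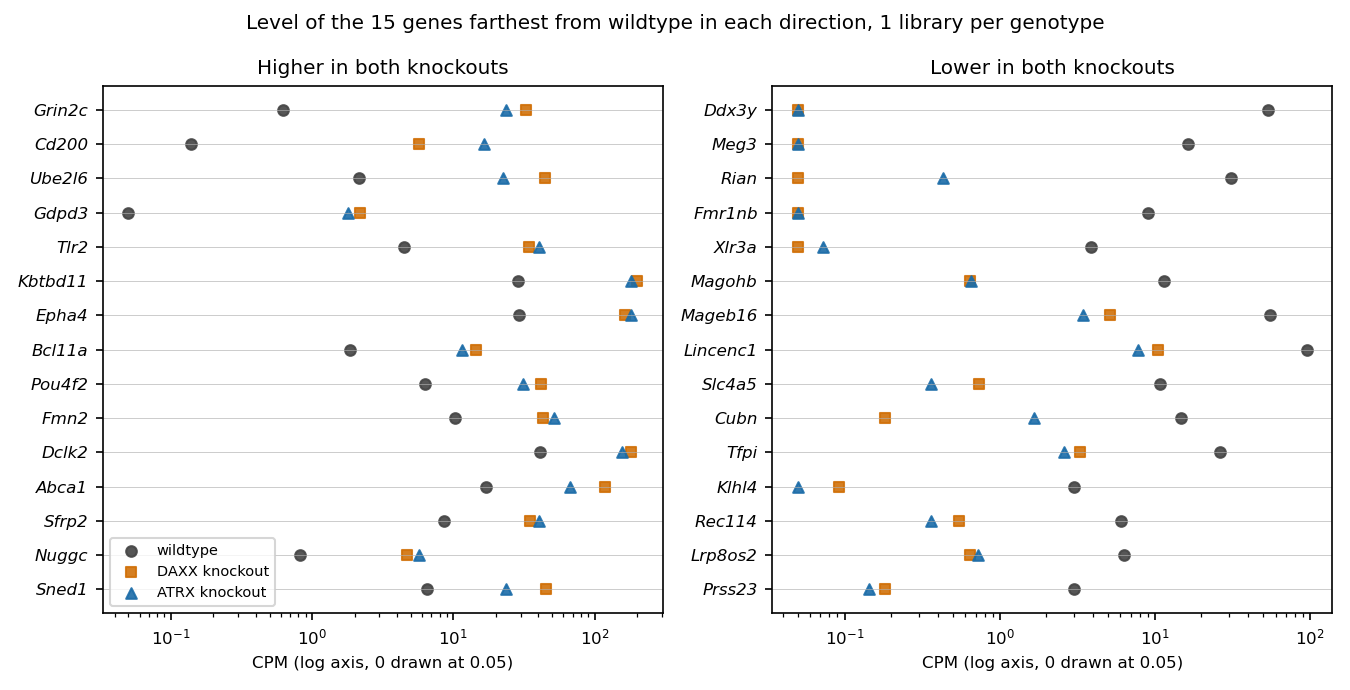
Level in CPM (horizontal axis, log scale) in each of the 3 libraries for the named genes that were furthest from wildtype in both knockouts, higher genes on the left and lower genes on the right, with 1 point per library and a level of 0 drawn at 0.05 CPM. Kbtbd11 stood at 28.6 CPM in wildtype and at 199.98 and 181.7 in the knockouts, and Lincenc1 at 95.1 against 10.5 and 7.80.

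The 4 genes that fell were Ddx3y, Lincenc1, Mageb16 and Rian. Ddx3y, the Y-linked counterpart of the RNA helicase gene Ddx3x, had 775 reads in wildtype and 0 in both knockouts. Against a floor of 3 reads per library it was at least 194-fold lower in DAXX-/- cells and at least 246-fold lower in ATRX-/- cells (edgeR adjusted p = 0.0322). It lies on chromosome Y (1260771 to 1286629). Ddx3x had 10620, 9151 and 9694 reads and a log2 fold of 0.07 (edgeR adjusted p = 0.958).

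Chromosome Y held 6 tested genes, of which 5 were on the list of Y-linked genes described here. None of the 4 listed genes tested besides Ddx3y was at 0 in either knockout. Eif2s3y, a translation initiation factor subunit, had 768 reads in wildtype, 32 in DAXX-/- cells and 705 in ATRX-/- cells. Uty, a histone demethylase family member, had 434, 17 and 178 reads, and Kdm5d, another demethylase, had 88, 49 and 35. All 5 listed genes tested were below wildtype in both knockouts, Eif2s3y only slightly so in ATRX-/- cells. Of the 5, 1 was called, and 3 had an unadjusted p under 0.05 in edgeR. The summed level of the list was 147 CPM in wildtype, 9.06 in DAXX-/- cells and 67.9 in ATRX-/- cells, so the clones differed from each other as well as from wildtype. In bulk RNA, fewer cells with a transcript and less RNA per cell cannot be told apart, here and in the results that follow.

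Lincenc1, a long intergenic noncoding RNA of ESCs, lies on chromosome 13 (97434970 to 97497007). It had 1381 reads in wildtype, 115 in DAXX-/- cells and 108 in ATRX-/- cells, or 95.1, 10.5 and 7.80 CPM. The log2 fold was -3.39 (edgeR adjusted p = 0.0322), with -3.18 (-3.46 to -2.90) and -3.61 (-3.90 to -3.33) in the separate knockouts.

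Mageb16, an X-linked gene of the melanoma antigen family, had 800 reads in wildtype, 56 in DAXX-/- cells and 48 in ATRX-/- cells, and fell by 3.70 on the log2 scale (edgeR adjusted p = 0.0346). The gene was grouped with X-linked homeobox genes and cancer-testis antigens, which are expressed mainly in germ cells and placenta. Of 32 list members in the reference, 10 were tested, and all 10 were below wildtype in both knockouts. Testing needed 1 CPM in at least 1 library, and Fmr1nb, Xlr3a, Rhox6 and Rhox9 reached it in wildtype alone. Such genes can only be lower, so the filter in part fixes this count and the list's median. Mageb16 was called by edgeR, 8 of 10 had an unadjusted p under 0.05, and 6 were lower by the rule of size. Fmr1nb had 131 reads in wildtype and 0 in both knockouts, at least 32.9-fold lower in DAXX-/- cells and 41.7-fold lower in ATRX-/- cells (edgeR adjusted p = 0.165). Xlr3a had 56, 0 and 1 reads, and its near-identical copies Xlr3b (13, 0 and 1) and Xlr3c (9, 0 and 0) can exchange reads with it. The homeobox genes Rhox5 (253, 34 and 7 reads), Rhox6 (55, 4 and 3) and Rhox9 (44, 4 and 4) lie within a single cluster on chromosome X. The list's median log2 fold was -3.28. Over all 32 members, tested or not, the summed level was 102 CPM in wildtype, 10.8 in DAXX-/- cells and 6.57 in ATRX-/- cells.

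More widely, 13 of 447 tested genes on chromosome X were lower by the rule of size (2.91%), against 64 of 12878 on the autosomes (0.497%), and 0 were higher. Several of the 13 reached 1 CPM in wildtype alone, such as Klhl4 at 3.03 CPM there and 0.09 and 0 in the DAXX and ATRX knockouts. Such genes could only be lower, so the filter bears on this share and on the CG counts that follow. Promoter windows were matched for 11 of these 13 genes. They held a median of 5 CG, and 0 of the 11 held 10 or more, as the Mageb16 window printed above shows with 6. Of the 387 X-linked genes tested that had a window, 73.6% held 10 or more CG and the median was 16. The 49 of 64 autosomal lower genes with a window held a median of 8, with 10 or more in 49.0%, too few matched for a check. The other X-linked genes of the set included Klhl4 (44, 1 and 0 reads), Klhl13 (312, 67 and 104) and Stard8 (120, 27 and 35).

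Rian fell to 0 reads in DAXX-/- cells and 6 in ATRX-/- cells from 448 in wildtype (edgeR adjusted p = 0.0446). It is a maternally expressed noncoding RNA of the imprinted Dlk1-Dio3 domain on chromosome 12 (109603940 to 109661716). It was at least 112-fold lower in DAXX-/- cells, and its log2 fold in ATRX-/- cells was -6.15 (-7.61 to -5.02). All 6 of its transcripts at 1 CPM or more were lower in both knockouts. The call did not hold under 6 other settings or when chromosome 11 genes were left out. Meg3, the noncoding RNA next to it, had 237 reads in wildtype and 0 in both knockouts, at least 59.4-fold and 75.4-fold lower (edgeR adjusted p = 0.106). Mirg, another noncoding RNA of the domain, had 8, 0 and 1 reads and was too low to be tested. The paternally expressed Dlk1 had 27, 5 and 37 reads, and Dio3 had 13, 6 and 17. The 3 noncoding RNAs were thus low in both knockouts, and the few reads of Dlk1 and Dio3 were below wildtype in DAXX-/- cells and above it in ATRX-/- cells.

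Among all 19 maternally expressed imprinted genes tested, Rian was called by edgeR, Rian and Meg3 were lower by size, and Grb10 was higher. Grb10, an adaptor that restrains insulin receptor signalling, had 4055 reads in wildtype, 7800 in DAXX-/- cells and 13369 in ATRX-/- cells, and a log2 fold of 1.59 (edgeR adjusted p = 0.189). Of 23 paternally expressed genes tested, 0 were called by edgeR or by size and 4 had an unadjusted p under 0.05. The median log2 fold was -0.12 for the maternally expressed list and -0.11 for the paternally expressed list.

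Genes of the germline, active mainly in developing sperm and eggs, were mostly below wildtype. Of 36 tested, 28 were lower in both knockouts (77.8%, against 31.6% of all genes) and 0 were called by edgeR. An unadjusted p under 0.05 was seen for 18 (against 6.74% of all genes), and 7 were lower by size (against 0.585%). This list, like the others, was chosen with earlier results of these data known, so its share is no separate support. Slc25a31, 1 of the 7, reached 1 CPM in wildtype alone (2.62, 0.458 and 0.578 CPM) and could only be lower. Sohlh2, a transcription factor of early germ cells, had 258 reads in wildtype, 25 in DAXX-/- cells and 50 in ATRX-/- cells, with a log2 fold of -2.56 (edgeR adjusted p = 0.177). Dazl, an RNA-binding protein required in germ cells, had 104, 17 and 19 reads. Hormad2, a component of the meiotic chromosome axis, had 139, 13 and 31. Piwil2, which binds piRNAs, had 1112, 333 and 416, and Tex19.1, a restrainer of retrotransposons in germ cells, had 1036, 221 and 355. Tex19.1 and Hormad2 lie on chromosome 11, whose genes were lower as a whole, as described further on. Outside the rule of size, Dnmt3l, the cofactor of the de novo DNA methyltransferases, had 905, 195 and 411 reads and a log2 fold of -1.38 (edgeR adjusted p = 0.398). The list's median log2 fold was -0.62, with a summed level of 743 CPM in wildtype, 457 in DAXX-/- cells and 512 in ATRX-/- cells. Its promoter windows, matched for 34 of 36 genes, held a median of 18.5 CG.

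Markers of extraembryonic endoderm, a lineage that can arise in ESC cultures, were also mostly lower. Of 23 tested, 20 were below wildtype in both knockouts (87.0%, against 31.6% of all genes) and 0 were called by edgeR. An unadjusted p under 0.05 was seen for 8 (against 6.74% of all genes), and 4 were lower by size (against 0.585%). Srgn, 1 of these 4, reached 1 CPM in wildtype alone (3.10, 0 and 0.51 CPM) and could only be lower. Cubn, an endocytic receptor of the yolk sac, had 213 reads in wildtype, 2 in DAXX-/- cells and 23 in ATRX-/- cells. Lama1, a laminin chain of basement membranes, had 1661, 457 and 680, and Dab2, an endocytic adaptor, had 135, 10 and 41. The transcription factors Gata4 (97, 9 and 75 reads) and Gata6 (38, 2 and 21) were lowest in DAXX-/- cells. The median log2 fold was -2.24 in DAXX-/- cells and -0.93 in ATRX-/- cells, and -1.28 in both together. The summed level was 1746, 1575 and 1741 CPM, much of it from Lamc1 (10432, 10526 and 11457 reads) and Apoe (2659, 2590 and 5382). Ttr had 0 reads in every library and Afp had 1, 0 and 0.

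Other cell types were read from their own markers. Of 12 trophoblast markers tested, Krt19, Rhox6 and Rhox9 were lower by size, against 0.585% of all genes. Rhox6 and Rhox9 were also on the X-linked list, and reached 1 CPM in wildtype alone, so they could only be lower. Krt19 lies on chromosome 11, whose genes are described below. The summed level of the trophoblast list was 143, 94.5 and 105 CPM in wildtype, the DAXX knockout and the ATRX knockout. Elf5 had 0, 1 and 0 reads, Cdx2 0, 3 and 13, and Tpbpa 0 in each. Of 14 fibroblast markers tested, 10 were below wildtype in both knockouts (71.4%, against 31.6% of all genes) and 0 were called by edgeR. An unadjusted p under 0.05 was seen for 5 (against 6.74% of all genes), and Acta2 alone was lower by size (21, 1 and 2 reads). Acta2 reached 1 CPM in wildtype alone (1.45, 0.09 and 0.14 CPM) and could only be lower. The median log2 fold of the fibroblast markers tested was -1.30 in DAXX-/- cells and -0.21 in ATRX-/- cells. The summed level of the list was 1446, 1729 and 1774 CPM, most of it from Fn1 (1303, 1644 and 1641 CPM). Lum and Fap had 0 reads in all 3 libraries, and Dcn had 1 read, in wildtype. The part of these cells in the genes that were lower in both knockouts was not tested.

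**Figure D3:**
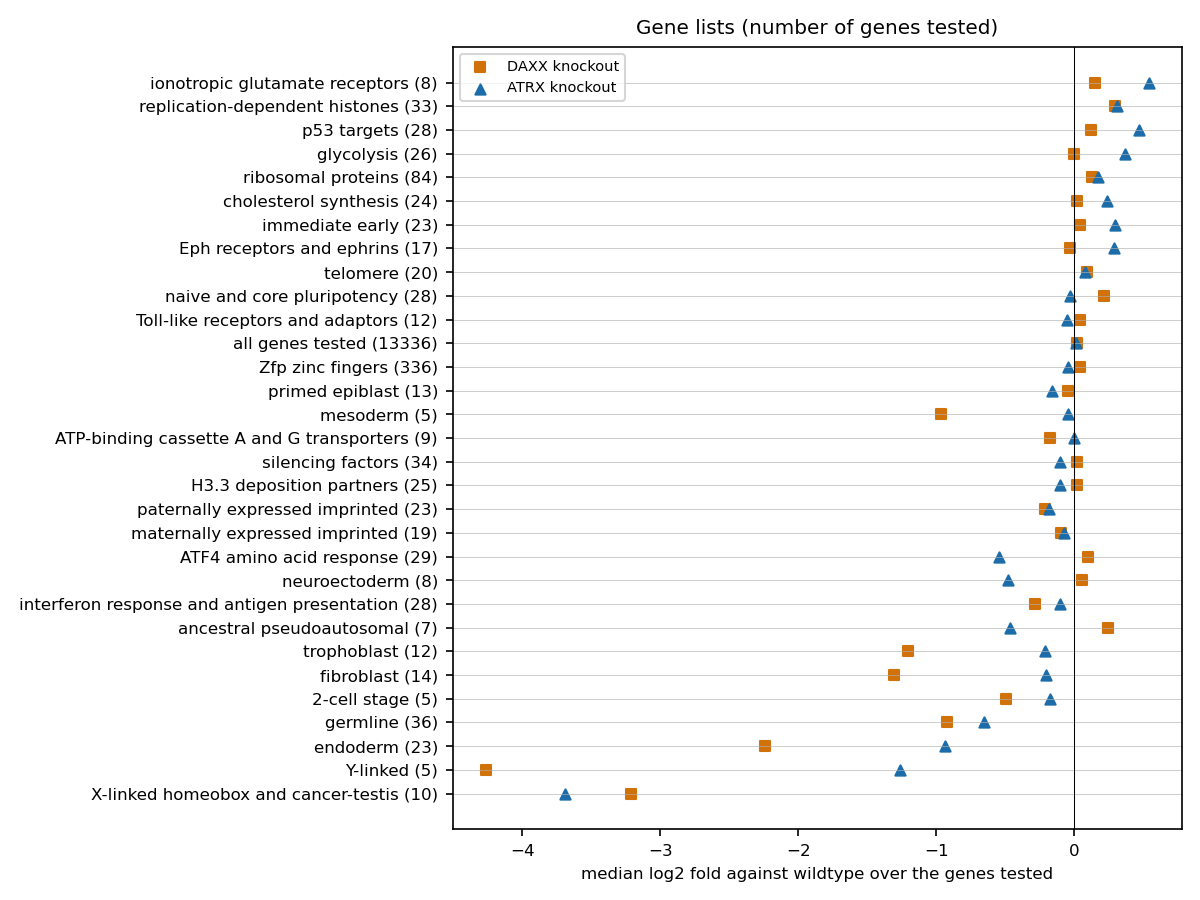
Median log2 fold against wildtype over the tested members of each gene list (horizontal axis) in the DAXX knockout (squares) and the ATRX knockout (triangles), with the number of genes tested beside each list. The X-linked homeobox and cancer-testis list lay at -3.21 and -3.69, the Y-linked list at -4.26 and -1.26, and all genes together at 0.02 and 0.01.

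Of the remaining lower genes ranked highest, none passed edgeR's test. Tfpi, an inhibitor of blood coagulation, had 381 reads in wildtype and 36 in each knockout, with a log2 fold of -3.17 (edgeR adjusted p = 0.0668). Slc4a5, a sodium bicarbonate cotransporter, had 157, 8 and 5 reads. Magohb, a core protein of the exon junction complex, had 167, 7 and 9 reads, while its near-identical partner Magoh had 1470, 1275 and 1433, and reads can pass between them. Rec114, needed for meiotic DNA breaks, had 88, 6 and 5 reads and overlaps Nptn on the opposite strand (866, 621 and 768). Lrp8os2, an antisense transcript of Lrp8, had 92, 7 and 10 reads, beside 168, 93 and 163 on Lrp8. Prss23, a serine protease, had 44, 2 and 2 reads.

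The clones differed from each other within both sets. The median absolute log2 fold between them was 0.39 in the higher set, 0.46 in the lower set and 0.20 over all genes tested. The interval of the fold between the 2 knockouts excluded no change in 23 of 31 higher genes (74.2%), in 16 of 78 lower genes (20.5%) and in 40.6% of all genes tested. Such intervals are wide where reads are few, as in the 3 lower genes at 0 reads in both knockouts. The median log2 fold was 2.39 in the higher set and -3.12 in the lower set, values fixed in part by the rule itself. Just inside the 2-fold limit lay Dhrs3, Skida1, Krt19 and Myh3, whose nearest interval bounds were 1.02, 1.01, -1.03 and -1.01 on the log2 scale. Just outside lay Apcdd1 and 2900011O08Rik at 0.98 and 0.96, and Arhgap30 and Col6a4 at -0.98 and -0.97.

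Gene groups tied to the ATRX and DAXX pathway itself had medians close to wildtype. Of 25 genes for H3.3 and its deposition partners, 0 were called by edgeR, 2 had an unadjusted p under 0.05, and the median log2 fold was -0.06. Within it Pml, which builds the nuclear bodies where DAXX resides, had 2643, 3217 and 3536 reads and a log2 fold of 0.59 (edgeR adjusted p = 0.471). The H3.3 genes H3f3a and H3f3b had log2 folds of 0.19 and -0.37, and H3f3b lies on chromosome 11, whose genes are described below. Of 34 silencing factors, 0 were called and 3 had an unadjusted p under 0.05. Of 20 telomere genes, 0 were called, 0 had an unadjusted p under 0.05, and the median log2 fold was 0.08.

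Stress and housekeeping lists gave no edgeR calls. The p53 target list had a median log2 fold of 0.31, with 0.12 in DAXX-/- cells and 0.47 in ATRX-/- cells. Of its 28 members 19 were above wildtype in both knockouts (67.9%, against 36.4% of all genes), 0 called by edgeR and 3 with an unadjusted p under 0.05. Its members differed, with Sesn1 at 0.80 and Phlda3 at 0.74, and Dusp4 at -0.88 and Eda2r at -0.74. Ribosomal protein genes stood above wildtype in both knockouts in 70 of 84 cases (83.3%), at a median log2 fold of 0.16. Rpl10l, the testis copy also counted in the germline list, was lower by size (178, 31 and 37 reads). Their list had 0 edgeR calls and 5 members with an unadjusted p under 0.05. With total gene counts in place of trimmed means as the scaling, the median of all genes moved from 0.03 to -0.05, so medians this close to 0 depend on the scaling.

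Genes of chromosome 11 were lower as a whole in both knockouts, a pattern noticed after the data were seen. The median log2 fold over its 1126 tested genes was -0.24 (interquartile range -0.40 to -0.06), with -0.25 in DAXX-/- cells and -0.24 in ATRX-/- cells. The median on every other autosome lay between 0.00 and 0.32 in DAXX-/- cells and between -0.01 and 0.07 in ATRX-/- cells. The value of 0.32 was that of chromosome 18, which stood at 0.06 in ATRX-/- cells. On chromosome 11, 771 genes (68.5%) were below wildtype in both knockouts, against 3276 of 11752 (27.9%) on the other autosomes. Unadjusted edgeR p-values under 0.05 came to 145 genes (12.9%) there and 720 (6.13%) elsewhere on the autosomes, and 0 genes of the chromosome passed the adjusted test. Between the knockouts the median log2 fold was 0.02, so the medians of the knockouts were close to each other.

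The shift ran along the whole of chromosome 11. All 13 windows of 10 megabases had medians below 0 in both knockouts, from -0.33 to -0.16 in DAXX-/- cells and from -0.35 to -0.14 in ATRX-/- cells. Among genes at 10 CPM or more in wildtype the median was -0.21 over 782 genes. The chromosome held 11 of the 78 lower and 3 of the 31 higher genes, among them Igfbp3, an insulin-like growth factor binding protein (471, 68 and 89 reads), and on the higher side Grin2c, Bcl11a and Grb10. With its genes left out, 5 of 12210 genes were called, 28 were higher by size and 67 lower. DNA copy number was not measured in these libraries.

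**Figure D4:**
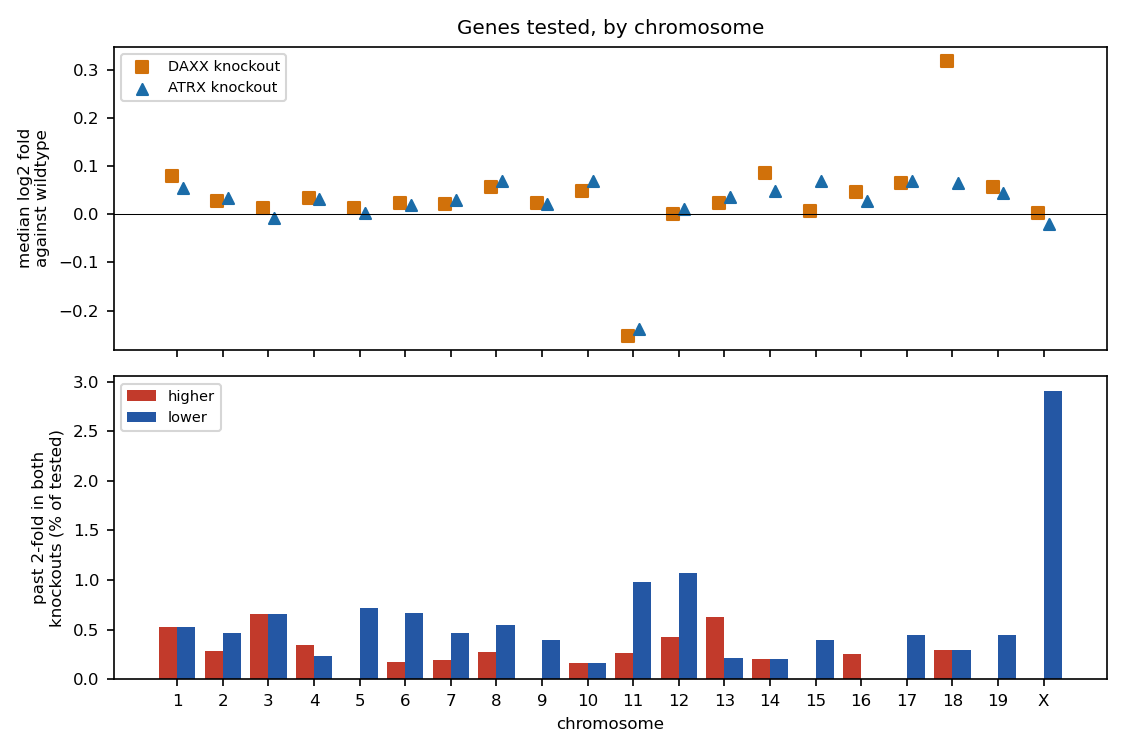
Upper panel: median log2 fold against wildtype of the tested genes on each autosome and chromosome X, for the DAXX (squares) and the ATRX (triangles) knockout. Lower panel: percent of those genes higher or lower in both knockouts by the rule of size. Chromosome 11 lay at -0.25 and -0.24 in the upper panel, and chromosome X had the tallest bar of lower genes, at 2.91%.

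Repeat sequences were counted on their consensus sequences in the same libraries. Of 118 tested, 3 were higher by size in both knockouts (2.54%), all of them IAP elements, and 0 were lower. By edgeR 0 passed the adjusted test and 3 had an unadjusted p under 0.05, of which RLTR1IAP_MM was higher and Lx_3end_L1 (18, 3 and 5 reads) and RLTR13A_ERV2 (37, 15 and 7) were lower. IAP sequences together had 3549 reads in wildtype, 9500 in DAXX-/- cells and 8181 in ATRX-/- cells, or 244, 870 and 591 CPM. Most of these reads lay on IAPEZI and IAPLTR1a_I_MM, and 3 of the 16 IAP sequences tested passed the rule of size. The other members had fewer reads and differed in direction. IAPA_MM had 153, 318 and 316 reads, and IAPLTR4_I had 30, 12 and 16. RLTR1IAP_MM, a long terminal repeat, had 17, 158 and 107 reads and a log2 fold of 3.22 (edgeR adjusted p = 0.191). IAPEZI, an internal sequence, had 1614, 4862 and 4151 reads (edgeR unadjusted p = 0.0508), and IAPLTR1a_I_MM had 1395, 3753 and 3263 (unadjusted p = 0.0904). The edgeR adjusted p of both was 0.9997. The other ERV2 elements had summed log2 folds of 0.61 and 0.41 in the DAXX and the ATRX knockout.

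Of the remaining families, ERV1 and LINE-1 had a summed level above wildtype in DAXX-/- cells alone. The summed levels of ERV3, SINE and satellite sequences were below it in both knockouts, though not every member was. ERV1 sequences had a summed log2 fold of 1.63 in DAXX-/- cells and -0.00 in ATRX-/- cells, and LINE-1 sequences 0.34 and -0.51. The ERV1 sum rested mainly on 1 sequence, RLTR4I_MM. It had 505, 1788 and 586 reads, of 978, 2282 and 932 in the family, so the sum says little of the other ERV1 members, which differed. In DAXX-/- cells RLTR4_MM (15, 43 and 19 reads) and MuRRS4-int (26, 63 and 29) were also higher. Their log2 folds there were 1.93 (1.05 to 2.88) and 1.69 (1.01 to 2.41). Others were not, such as RLTR6_MM (56, 40 and 24 reads) at -0.07 (-0.70 to 0.54). ERV3 sequences stood at -0.11 and -0.48, with MERVL, the element of the 2-cell embryo, at 2258, 1398 and 1406 reads, and log2 folds of -0.28 (-0.38 to -0.18) and -0.62 (-0.71 to -0.52). SINE sequences stood at -0.24 and -0.73, and satellites, with 198, 139 and 120 reads in all, at -0.10 and -0.65. Of the 3 satellites tested, GSAT_MM went the other way in DAXX-/- cells, with 12, 39 and 10 reads. Its log2 folds were 2.11 (1.15 to 3.18) in DAXX-/- cells and -0.20 (-1.56 to 1.14) in ATRX-/- cells. Reads on repeats come from many genomic copies, so no value belongs to a single locus.

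**Figure D5:**
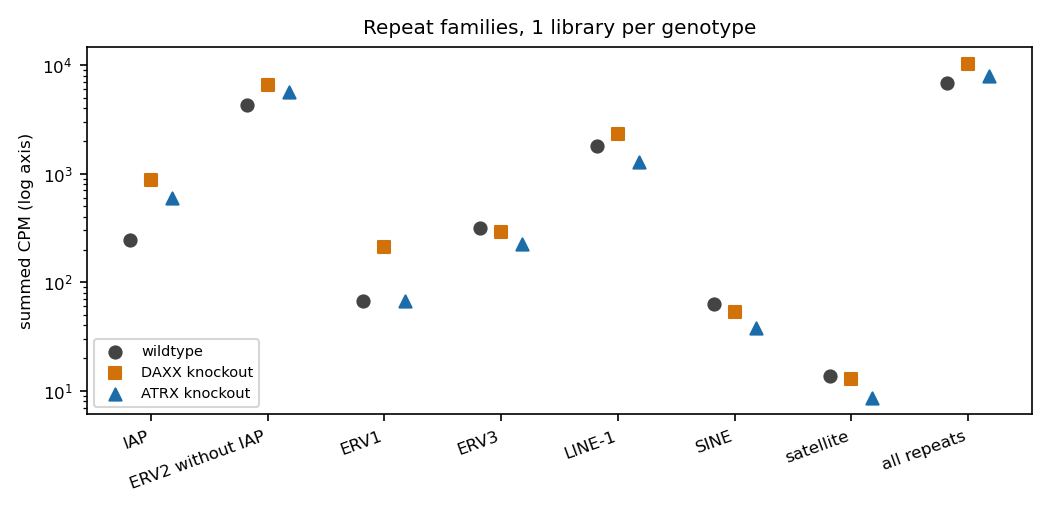
Summed level of each repeat family in CPM (vertical axis, log scale) in the wildtype, DAXX knockout and ATRX knockout library, 1 point per library. IAP sequences lay at 244 CPM in wildtype and at 870 and 591 in the knockouts, and ERV1 sequences were above wildtype in the DAXX knockout, at 209 against 67.4, and not in the ATRX knockout, at 67.3.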

How the data were processed

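Polyadenylated RNA of 3 ESC clones was compared, 1 library each. The authors deposited raw read counts per reference sequence, not normalised, in the layout of SAMtools idxstats, 50407 sequences of which 48843 are transcripts and 1564 repeats. Bowtie 1.1.2 and SAMtools were used with build GRCm38.p4, per the submitters' processing notes. Reads align to transcripts, so counts were summed by symbol (24006 symbols), and antisense or near-identical genes can share reads.

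Genes with at least 1 CPM in at least 1 library (13336) were scaled by edgeR's TMM (trimmed mean of M values) and tested with edgeR 4.0.16 in R 4.3.3 (quasi-likelihood F test, 2 knockouts against 1 wildtype, Benjamini-Hochberg, threshold 0.05), with DESeq2 1.42.0 and limma 3.58.1 as alternatives. A gene that reached 1 CPM in wildtype alone could only be lower in both knockouts, which bears on the counts and medians of all lists and on the shares by chromosome. The labels give no separate cultures within a genotype, so p-values measure only the spread between these libraries. Intervals are exact conditional binomial at 95%, cover counting error only, and take each read as a separate molecule, which PCR copies are not. A count of 0 was set to a floor of 3 reads per library. Calls were tested on simulated data. The edgeR test called 21 of 50 simulated 2-fold changes (42%) and 43 of 50 4-fold changes (86%). Among unchanged genes it made 11 false calls, and the rule of size made 6. The simulated wildtype was given the same spread as the knockouts, so the simulation cannot address the lone wildtype clone. Each simulated gene took the spread typical of its level, and a changed gene changed alike in both knockouts. Real genes and clones can differ more, so the shares called need not hold for them. Positions are from GENCODE M21 (GRCm38), found for 13331 tested genes. Promoters matched 78.2% of the lower and 77.4% of the higher genes, under 80%, so the CG content of the whole sets could not be checked, and the values over autosomal lower genes and over all genes tested (79.2% matched) only describe the matched genes.

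Genes named were Atrx and Daxx, the 15 higher and 15 lower genes furthest from wildtype in both knockouts (by the interval bound nearest to no change, without predicted or clone names), up to 4 members per list and 5 repeats per direction. Others, such as the Y-linked and Dlk1-Dio3 genes, were added after their values were seen. Of 30 lists, those not described gave no edgeR call. The members and lists were chosen with earlier results of these data known.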

Additional observations from a re-analysis of the deposited data

How the results depend on the processing

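Of 138 named genes, 7 that neither rule called changed sign in 12 cases (Atrx, Eif1a, Eomes, Grik5, Irak1, Plcxd1 and Traf6), and the rest kept theirs. Ddx3y, Epha4, Kbtbd11, Lincenc1 and Mageb16 also passed with DESeq2 size factors, limma-voom, no filter and a 5 CPM filter. Total gene counts as scaling gave 13 calls, 6 higher and 7 lower (46.2% higher, against 33.3%). No filter gave 10, with 5 higher, and the most abundant transcript gave 2, with 1 higher (Kbtbd11) and 1 lower (Ddx3y). Counts thinned to the smallest library gave 0 calls by edgeR, 887 genes at an unadjusted p under 0.05. DESeq2 gave 63, with 43 higher and 20 lower, among 392 genes at an unadjusted p under 0.05, and 776 adjusted p-values were not given. The older edgeR quasi-likelihood method gave 5 higher of 8. Rian missed the threshold under DESeq2 size factors, DESeq2, limma-voom, the older edgeR method, the most abundant transcript and thinning, with adjusted p from 0.0538 to 0.9998. The cause was not tested.

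The rule of size gave 99 higher and 171 lower genes at a 1.5-fold limit, and 16 and 32 at 3-fold. A 5 CPM filter left 42 lower genes, since fewer genes are tested. With 1 knockout library left out, and no test possible, it gave 64 to 92 higher and 152 to 204 lower genes, and 3 to 8 higher and 0 to 1 lower repeat sequences. List medians moved by more than the spread between the knockouts in 29 of 180 cases. The chromosome 11 difference of -0.29 from the other autosomes, with alternatives chosen after the data were seen, ran from -0.29 to -0.27. No paired analysis was possible because each genotype has a single library and the labels carry no replicate numbers.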

Other observations

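Several genes known to be induced by interferon were lower by size in both knockouts, named here after their values were seen. Gbp2 had 98 reads in wildtype, 0 in DAXX-/- cells and 12 in ATRX-/- cells, and its neighbour on chromosome 3, Gbp2b, had 53, 1 and 5. Slfn9 had 192, 45 and 26 reads and the adjacent Slfn8 22, 0 and 3, both on chromosome 11 with Irgm1 (42, 5 and 5). Samd9l had 29, 3 and 1 reads. Ube2l6, from the same response, stood on the other side with 31, 485 and 313 reads. Over the 28 interferon response and antigen presentation genes tested, 1 was higher and 1 lower by size, 0 were called by edgeR, 5 had an unadjusted p under 0.05, and the median log2 fold was -0.19.

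Genes of testis or germ cells that were on no list, also named after their values were seen, included Cyct, the testis cytochrome c (313, 56 and 75 reads), Aurkc, a meiotic kinase (48, 2 and 5), Gpat2 (171, 16 and 29), Usp26 (26, 0 and 1) and Tuba3a (264, 39 and 68). All were lower by size in both knockouts, and none passed edgeR's adjusted p, with values of 0.162 for Cyct, 0.348 for Aurkc, 0.198 for Gpat2, 0.345 for Usp26 and 0.211 for Tuba3a. Among the 109 genes called by size, 8 pairs of the same direction lay next or close to each other on a chromosome. Other genes can lie between the members of a pair. Rhox5 with Rhox6, Rhox6 with Rhox9, Pnma5 with Xlr3a, and Meg3 with Rian were lower. Gm21967 with Gm7120 were higher, but they share their coordinates and so are a single locus. The share of such pairs over all genes tested is not given here.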
